A study of Homo sapiens with 5 samples.

Results

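Expression of 10 genes of cell-surface proteolysis was followed in Ishikawa cells after silencing of the long non-coding RNA LINC00958. Ishikawa is a human cell line established from an endometrial carcinoma. The genes were taken by symbol from the deposited table of gene expression, which lists 58174 genes, and all 10 were found: the disintegrin metalloproteases ADAM9, ADAM10, ADAM12, ADAM15, ADAM17 and ADAM19, the membrane-type matrix metalloproteinases MMP14 and MMP15, and the tissue inhibitors of metalloproteinases TIMP1 and TIMP2. RNA was sequenced from 3 libraries of cells carrying a lentiviral short hairpin RNA against LINC00958 (sh-LINC00958) and from 2 libraries of cells carrying a negative control (sh-NC). Cells of both groups were infected and selected with puromycin. The sources used here give neither the hairpin sequences nor their number nor the time of harvest. They do not say whether replicate libraries are separate cultures, so the p-values cover only the spread among these 5 libraries, which may be technical. The study set out to examine what silencing of LINC00958 does to the transcriptome.

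ADAM proteases are membrane-anchored zinc enzymes that cut the outer domains off other membrane proteins, a process called shedding, by which growth factors are released and adhesion molecules and receptors are cleaved. Membrane-type MMPs degrade extracellular matrix at the cell surface and activate other proteases. TIMPs are secreted proteins that block the active sites of members of both families, though not every TIMP blocks every enzyme. In the endometrium these proteins take part in the remodelling of tissue through the menstrual cycle and in tumour invasion.

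Expression was given as TPM, a level of transcript abundance scaled for gene length and for the total of its library, so that every value is relative to the other RNAs of that library. The table holds no read counts, so the depth behind each value is unknown and no counting interval can be given. The libraries listed 27896 to 29411 genes above 0. LINC00958 itself measured 67.2, 67.1 and 58.4 TPM in sh-LINC00958 and 119 and 137 TPM in sh-NC (log2 fold change -0.99, adjusted p = 0.0119 in limma). That call was lost when either control was left out (log2 fold change -1.09 without sh-NC replicate 1 and -0.89 without replicate 2). It was also lost in limma without the first silenced library (-1.02, adjusted p = 0.0545). With the replicate number as a block, described at the end, it was lost too (-0.92, adjusted p = 0.104 in limma). Of 7 epithelial markers 6 had a mean of at least 1 TPM, with summed levels of 2334 to 2514 TPM in sh-LINC00958 and 2349 to 2358 TPM in sh-NC. The exception was ESR1, the oestrogen receptor gene, with 0.0149 TPM in 1 sh-LINC00958 library and 0 in the other 4. Markers of cells in which several of these protease genes are also used were low. They summed to 5.59 to 6.23 TPM in sh-LINC00958 and 5.28 to 5.41 TPM in sh-NC for 9 fibroblast markers, to 3.04 to 3.76 and 1.80 to 2.67 TPM for 6 blood cell markers, and to 4.39 to 5.89 and 6.51 to 6.90 TPM for 5 endothelial markers, in the same order of groups. Each of these 3 sums had no overlap between the groups, the fibroblast and blood cell sums being higher and the endothelial sum lower in sh-LINC00958. Among all single genes that averaged at least 1 TPM, 49.9% had no overlap between the groups. The part of these sums in the results was not tested. Single genes carried most of the fibroblast and blood cell sums, namely COL1A1, a collagen gene, at 5.00 ± 0.324 TPM in sh-LINC00958 and 4.51 ± 0.258 TPM in sh-NC, and CD68, a lysosomal protein gene used as a macrophage marker, at 3.08 ± 0.471 TPM in sh-LINC00958 and 1.94 ± 0.892 TPM in sh-NC. The endothelial sum came from PECAM1, VWF and CDH5, of which CDH5, the vascular cadherin gene, had no overlap, at 1.97 ± 0.329 TPM in sh-LINC00958 and 3.64 ± 0.367 TPM in sh-NC (adjusted p = 0.0651 in limma). COL3A1, DCN, LUM, FAP, CD163, CD3E and KDR stood at or near 0. Within the overlapping epithelial sum, members differed in both directions, and the markers given here were named after their values were seen. KRT18, an epithelial keratin, was called higher, at 342 ± 1.07 TPM in sh-LINC00958 and 252 ± 8.495 TPM in sh-NC (log2 fold change 0.44, adjusted p = 0.0211 in limma, and up to 0.127 with 1 library left out). EPCAM, an epithelial adhesion molecule, had 412 ± 20.7 TPM in sh-LINC00958 and 498 ± 7.91 TPM in sh-NC without overlap and was not called (-0.27, adjusted p = 0.0660). PAX8, a transcription factor of the reproductive tract epithelium, had 706 ± 9.98 TPM in sh-LINC00958 and 812 ± 14.8 TPM in sh-NC without overlap (-0.20, adjusted p = 0.0873) and was called lower once the trend with transcript GC content and length, described further on, was removed (-0.35, adjusted p = 0.0342).

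Changes below are differences of log2(TPM + 1), sh-LINC00958 minus sh-NC, fitted with limma over the 17049 genes that averaged at least 1 TPM. A gene was called at a two-sided Benjamini-Hochberg adjusted p under 0.05. The scale understates the change of low genes, and in bulk RNA fewer cells that express a gene cannot be told apart from less RNA per cell. In all, 4.12% of the genes tested were called higher in sh-LINC00958 and 5.68% were called lower. ADAM12 was listed at 0 in all 5 libraries and was not tested. Of the 9 tested, 2 rose, 3 fell and 4 did not pass, that is 5 of these 9 against 9.8% of all genes tested. The 9 had a median log2 fold change of 0.22, against 0.0014 over all genes tested. In 8 of the 9 the groups did not overlap, TIMP2 being the exception, while 49.9% of all genes tested did not overlap (24.4% higher and 25.5% lower). The genes were chosen with earlier results of these data known, so these shares describe the set and do not test it.

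**Figure D1:**
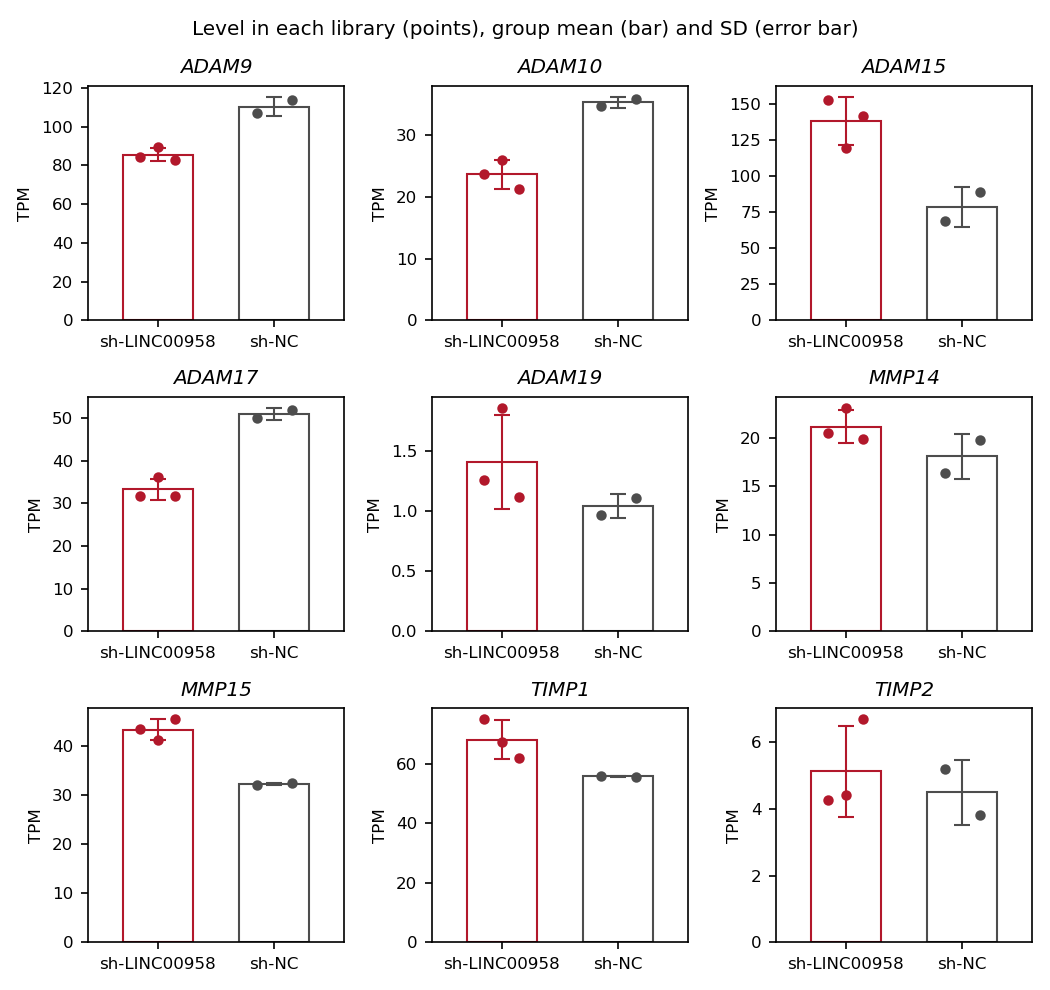
Expression of 9 genes in TPM in 3 sh-LINC00958 libraries (red, left) and 2 sh-NC libraries (grey, right). Points are libraries, bars are group means and error bars are the SD. ADAM9, ADAM10 and ADAM17 lie lower in every sh-LINC00958 library than in either sh-NC library, ADAM15 and MMP15 lie higher, and TIMP2 overlaps.

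The upstream sequences of 4 genes are shown because these 4 include both sheddases best known for growth factor and Notch processing, which fell together, and the ADAM and the membrane MMP that rose. Each is the 250 bases before the RefSeq transcription start in GRCh38.p14, written 5′ to 3′ on the strand of the gene. Capitals mark matches to the GC box GGGCGG on either strand, a letter pattern bound by Sp-family transcription factors. ADAM10 lies at chr15:58749708-58749957 on the minus strand, ADAM17 at chr2:9555831-9556080 on the minus strand, ADAM15 at chr1:155051066-155051315 on the plus strand and MMP15 at chr16:58025504-58025753 on the plus strand.
ADAM10: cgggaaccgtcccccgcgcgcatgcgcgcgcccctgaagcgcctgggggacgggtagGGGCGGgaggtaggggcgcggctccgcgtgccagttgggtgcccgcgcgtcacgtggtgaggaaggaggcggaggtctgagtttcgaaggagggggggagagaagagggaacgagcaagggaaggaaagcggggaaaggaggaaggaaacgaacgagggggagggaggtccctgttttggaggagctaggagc
ADAM17: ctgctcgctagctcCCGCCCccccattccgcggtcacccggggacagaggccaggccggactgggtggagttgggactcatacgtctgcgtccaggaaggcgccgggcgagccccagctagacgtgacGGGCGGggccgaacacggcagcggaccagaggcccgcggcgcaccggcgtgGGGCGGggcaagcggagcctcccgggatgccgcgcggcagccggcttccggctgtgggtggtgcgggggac
ADAM15: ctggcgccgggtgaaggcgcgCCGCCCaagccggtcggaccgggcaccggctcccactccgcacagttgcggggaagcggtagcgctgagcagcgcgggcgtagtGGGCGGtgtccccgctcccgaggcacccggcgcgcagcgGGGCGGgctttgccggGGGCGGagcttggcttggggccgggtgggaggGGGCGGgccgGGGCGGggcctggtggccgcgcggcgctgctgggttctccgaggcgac
MMP15: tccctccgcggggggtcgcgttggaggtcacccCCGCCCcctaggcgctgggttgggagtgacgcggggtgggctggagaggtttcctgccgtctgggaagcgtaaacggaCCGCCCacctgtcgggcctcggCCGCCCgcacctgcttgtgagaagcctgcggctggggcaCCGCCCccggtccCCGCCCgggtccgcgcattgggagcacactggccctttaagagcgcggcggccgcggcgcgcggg

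All 4 windows were rich in G and C, with 68.4% for ADAM10, 75.6% for ADAM17, 79.6% for ADAM15 and 74.8% for MMP15, against a median of 58.0% over 35114 promoters. ADAM10 held 1 GC box, ADAM17 held 3, MMP15 held 5 and ADAM15 held 6. Of the genes not shown, ADAM19 held 0, MMP14 held 1, TIMP1 held 2 and ADAM12 held 3. ADAM9, which fell, and TIMP2 were not matched to a promoter, so their counts are not known. A link of these counts with the direction of change was not tested. A GC box was present in 42.6% of all promoters of that length, and the number per promoter was not compared with them. None of the 4 sequences shown held the AP-1 pattern TGANTCA (6.57% of all promoters), the E2F pattern TTTNGCGC (1.51%) or the TATA pattern TATAAA (10.7%), each searched on both strands. These are matches of letters only. For the 4 genes shown, the gene begins 188 (MMP15) to 902 (ADAM17) bases further upstream in GENCODE release 29 than the RefSeq start.

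ADAM17, also known as TACE, releases tumour necrosis factor and several ligands of the epidermal growth factor receptor, and it fell in sh-LINC00958. The gene (ENSG00000151694) lies on chromosome 2 of GRCh38, minus strand, 9488486 to 9556732. It measured 31.8, 36.1 and 31.8 TPM in sh-LINC00958 and 49.999 and 51.9 TPM in sh-NC. All 3 silenced libraries were thus lower than either control, and the lowest control stood well above the highest silenced library. The group means were 33.2 ± 2.48 TPM in sh-LINC00958 (SD, n = 3) and 50.9 ± 1.33 TPM in sh-NC (SD, n = 2), so that sh-LINC00958 held 65.2% of the sh-NC mean. The ADAM17 log2 fold change was -0.60 (SE 0.0958, 95% CI -0.84 to -0.37, adjusted p = 0.0249). The 3′ exons of ADAM17 share 1323 bases with IAH1, an esterase gene on the opposite strand, and the strand setting of the quantification is not given. IAH1 was not called, with 49.5, 43.0 and 38.3 TPM in sh-LINC00958 and 31.3 and 37.4 TPM in sh-NC (log2 fold change 0.33, adjusted p = 0.172).

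ADAM10 is the main constitutive sheddase of Notch receptors, E-cadherin and the amyloid precursor protein. It lies on the minus strand of chromosome 15, 58588807 to 58749978 (ENSG00000137845), and it fell by a similar amount. ADAM10 measured 23.8, 26.0 and 21.3 TPM in sh-LINC00958 and 34.7 and 35.9 TPM in sh-NC. The groups were separate, and the silenced libraries spread more than the controls. The means were 23.7 ± 2.37 TPM in sh-LINC00958 (SD, n = 3) and 35.3 ± 0.843 TPM in sh-NC (SD, n = 2), 67.0% of the sh-NC mean. The ADAM10 log2 fold change was -0.56 (SE 0.112, 95% CI -0.84 to -0.29, adjusted p = 0.0373). An antisense transcript that shares 136 exon bases with it, AC018904.1, fell as well, to 5.01 ± 0.563 TPM in sh-LINC00958 against 8.34 ± 0.177 TPM in sh-NC (log2 fold change -0.64, adjusted p = 0.0434), and without a stated strand setting the reads of the pair cannot be told apart.

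ADAM10 and ADAM17 fell by similar amounts. Their ratio of TPM levels was 0.747, 0.720 and 0.668 in sh-LINC00958 and 0.695 and 0.693 in sh-NC, so the control ratios lay within the range of the silenced ones. Among the 100 tested genes of this set and of the pathway lists below, each was the other's nearest in pattern, with a root mean square difference of 0.0533 on the centred log2 scale over 5 libraries. This distance takes in the difference between the groups, so genes with like folds lie near each other. It does not show that they varied together within a group. The next nearest to both was DSG2, the desmosomal cadherin gene, at 0.0628 from ADAM10 and 0.0628 from ADAM17.

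ADAM9, a broadly expressed sheddase on the plus strand of chromosome 8 (38996869 to 39105144, ENSG00000168615), fell less. It measured 84.4, 89.4 and 82.9 TPM in sh-LINC00958 and 107 and 114 TPM in sh-NC. The silenced libraries lay close together below both controls. The means were 85.6 ± 3.44 TPM in sh-LINC00958 (SD, n = 3) and 110 ± 4.85 TPM in sh-NC (SD, n = 2), or 77.6% of the sh-NC mean, with an ADAM9 log2 fold change of -0.36 (SE 0.0782, 95% CI -0.55 to -0.17, adjusted p = 0.0438).

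ADAM15, whose disintegrin domain carries an integrin-binding motif in humans, went the other way and showed the widest difference of the 9 tested genes. It lies on the plus strand of chromosome 1, 155050566 to 155062775 (ENSG00000143537). ADAM15 measured 153, 120 and 142 TPM in sh-LINC00958 and 69.2 and 88.8 TPM in sh-NC. Every silenced library exceeded both controls, although the libraries within each group also differed. The means were 138 ± 16.7 TPM in sh-LINC00958 (SD, n = 3) and 79.0 ± 13.8 TPM in sh-NC (SD, n = 2), or 175% of the sh-NC mean, and the ADAM15 log2 fold change was 0.80 (SE 0.149, 95% CI 0.44 to 1.17, adjusted p = 0.0322). It shares 306 exon bases with DCST1, which had 0.426 ± 0.0704 TPM in sh-LINC00958 and 0.798 ± 0.0742 TPM in sh-NC. In pattern over the 5 libraries ADAM15 lay nearest to SDC4, at 0.113.

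The most abundant ADAM was ADAM15 in sh-LINC00958 and ADAM9 in sh-NC, while the summed level of ADAM9, ADAM10, ADAM15 and ADAM17 overlapped between the groups. In sh-LINC00958 the order of mean levels was ADAM15, ADAM9, ADAM17 and ADAM10, and in sh-NC it was ADAM9, ADAM15, ADAM17 and ADAM10, with no overlap between neighbours in either group. The ADAM15 to ADAM9 ratio of TPM was 1.81, 1.34 and 1.71 in sh-LINC00958 and 0.648 and 0.781 in sh-NC. ADAM15 made up 52.2%, 44.2% and 51.1% of the summed TPM of the 4 genes in sh-LINC00958 and 26.5% and 30.6% in sh-NC. The sum itself was 293, 271 and 278 TPM in sh-LINC00958 and 261 and 290 TPM in sh-NC, so the groups overlapped. Without ADAM15 the sum of the other 3 was 140, 152 and 136 TPM in sh-LINC00958 and 192 and 202 TPM in sh-NC, with no overlap. These orders, ratios, shares and sums are of TPM as deposited, describe the libraries and were not tested. The trend with transcript GC content and length, described further on, was not removed from them. With it removed, the log2 fold change was 0.01 for ADAM9, -0.31 for ADAM10, -0.38 for ADAM17 and 0.63 for ADAM15.

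**Figure D2:**
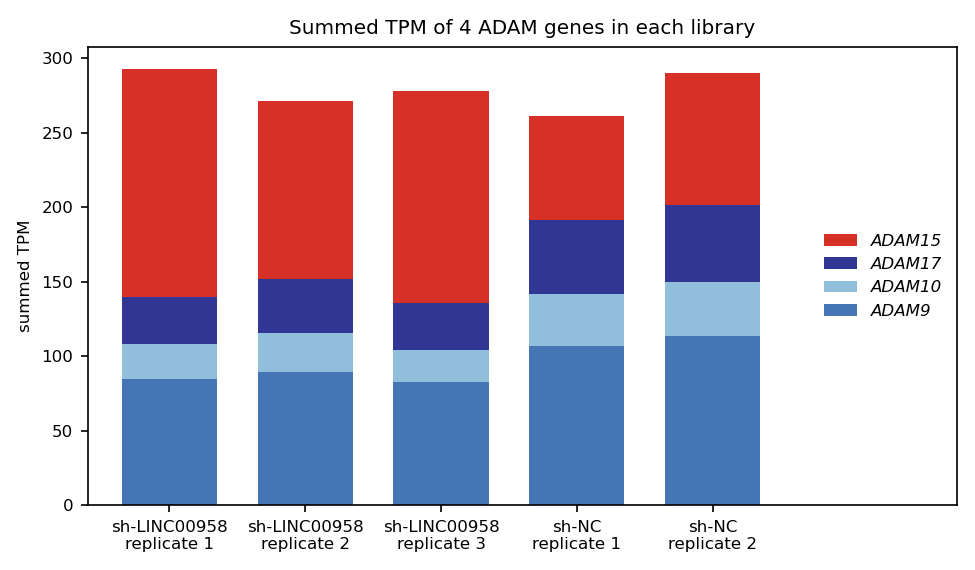
Stacked TPM, as deposited, of ADAM9, ADAM10, ADAM17 and ADAM15 in each of the 5 libraries. The 3 sh-LINC00958 libraries are on the left and the 2 sh-NC libraries on the right. The height of the bars overlaps between groups (271 to 293 and 261 to 290 TPM), while the ADAM15 segment takes 44.2% to 52.2% in sh-LINC00958 and 26.5% to 30.6% in sh-NC.

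The meltrin genes were listed at 0 or low. ADAM12, meltrin alpha, on the minus strand of chromosome 10 (126012381 to 126388455, ENSG00000148848), was listed at 0 throughout. ADAM19, meltrin beta, on the minus strand of chromosome 5 (157395534 to 157575775, ENSG00000135074), measured 1.26, 1.86 and 1.12 TPM in sh-LINC00958 and 0.970 and 1.11 TPM in sh-NC. The third silenced library and the second control nearly met, and the ADAM19 log2 fold change of 0.23 did not pass (95% CI -0.25 to 0.71, adjusted p = 0.475). ADAM19 shares 62 exon bases with CYFIP2, a gene on the opposite strand, and the strand setting is not given. CYFIP2 measured 7.25, 11.1 and 7.53 TPM in sh-LINC00958 and 9.13 and 10.6 TPM in sh-NC, above ADAM19 in every library.

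Of the membrane MMPs, MMP15 rose and MMP14 did not pass. MMP15, or MT2-MMP, on the plus strand of chromosome 16 (58025566 to 58046901, ENSG00000102996), measured 43.5, 41.2 and 45.5 TPM in sh-LINC00958 and 32.2 and 32.5 TPM in sh-NC. The controls were nearly equal and every silenced library stood above them. The means were 43.4 ± 2.14 TPM in sh-LINC00958 (SD, n = 3) and 32.4 ± 0.214 TPM in sh-NC (SD, n = 2), or 134% of the sh-NC mean, with an MMP15 log2 fold change of 0.41 (SE 0.0865, 95% CI 0.20 to 0.62, adjusted p = 0.0415). Its nearest gene in pattern was FURIN, at 0.0454.

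MMP14, or MT1-MMP, is the main pericellular collagenase and activates the secreted gelatinase MMP2. It lies on the plus strand of chromosome 14, 22836557 to 22849027 (ENSG00000157227). MMP14 measured 20.5, 23.1 and 19.9 TPM in sh-LINC00958 and 16.4 and 19.7 TPM in sh-NC. The lowest silenced library and the higher control almost touched, and the log2 fold change of MMP14 was 0.22 (95% CI -0.09 to 0.52, adjusted p = 0.296). MMP15 exceeded MMP14 in every library, with a TPM ratio of 2.13, 1.79 and 2.29 in sh-LINC00958 and 1.96 and 1.65 in sh-NC, ranges that overlap.

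Neither inhibitor passed the test. TIMP1, on the plus strand of chromosome X (47582313 to 47586789, ENSG00000102265) inside an intron of the synapsin gene SYN1, measured 75.1, 67.3 and 62.0 TPM in sh-LINC00958 and 56.0 and 55.7 TPM in sh-NC. All silenced libraries were higher, and the TIMP1 log2 fold change was 0.28 (95% CI 0.03 to 0.53, unadjusted p = 0.0350 in the limma fit, adjusted p = 0.135). TIMP2, which inhibits MMP14 and also tethers the MMP2 precursor to it, lies on the minus strand of chromosome 17, 78852977 to 78925387 (ENSG00000035862). TIMP2 measured 4.27, 4.41 and 6.69 TPM in sh-LINC00958 and 5.18 and 3.81 TPM in sh-NC. The groups overlapped, and the TIMP2 log2 fold change of 0.15 had an interval of -0.40 to 0.69 (adjusted p = 0.701). TIMP1 was the more abundant inhibitor, with 17.6, 15.3 and 9.27 times the TPM of TIMP2 in sh-LINC00958 and 10.8 and 14.6 times in sh-NC.

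Over all 10 genes the order of mean TPM in sh-LINC00958 was ADAM15, ADAM9, TIMP1, MMP15, ADAM17, ADAM10, MMP14, TIMP2, ADAM19 and ADAM12, and only ADAM10 and MMP14 overlapped as neighbours. In sh-NC the order was ADAM9, ADAM15, TIMP1, ADAM17, ADAM10, MMP15, MMP14, TIMP2, ADAM19 and ADAM12, and no neighbours overlapped. MMP15 thus stood above ADAM17 and ADAM10 in sh-LINC00958 and below both in sh-NC. Both orders are of TPM as deposited, without the GC and length correction described next.

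The direction of change ran with the base composition of the transcripts. ADAM9, ADAM10 and ADAM17, the 3 that fell, had transcript GC contents of 38.5%, 40.5% and 41.6% in GENCODE release 29 and lay in the lowest of 4 equally large GC classes of all tested genes (up to 43.0%). In that class the median log2 fold change of all genes was -0.29, with 15.8% called lower and 1.01% called higher. ADAM15 and MMP15, which rose, had 62.4% and 65.3%, and with TIMP1 (57.96%) and MMP14 (58.8%) they lay in the highest class (from 56.4%), where the median log2 fold change was 0.18, with 8.49% called higher and 0.729% called lower. TIMP2 (52.3%) and ADAM19 (55.1%) were in the class between 48.9% and 56.4%, with a median of 0.10. Exon length differed too, with 16168 bases for ADAM10 and 10750 for ADAM17 and 1541 for TIMP1.

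**Figure D3:**
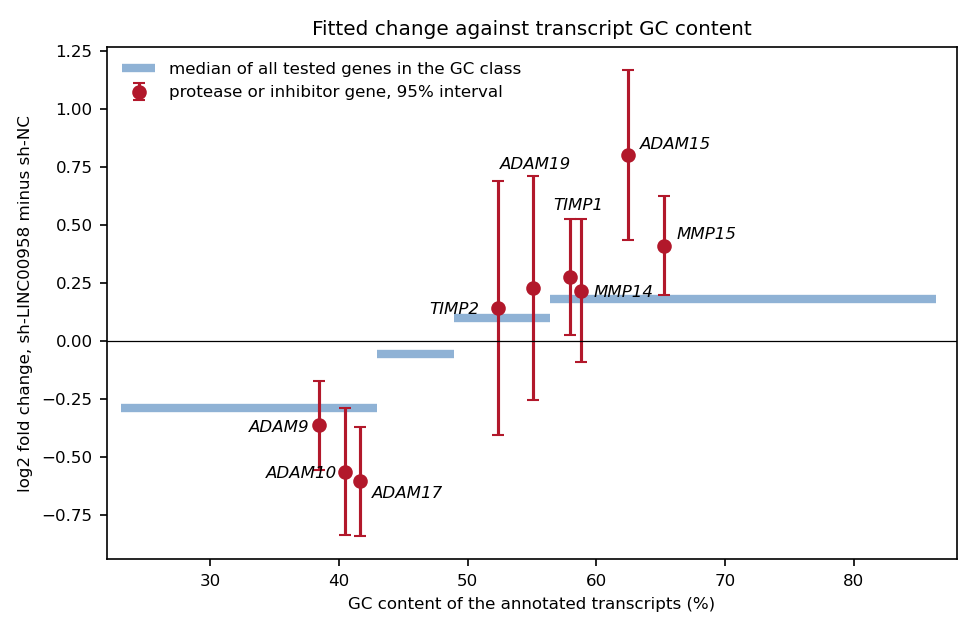
Fitted log2 fold change (sh-LINC00958 minus sh-NC) of 9 genes with 95% CIs against the GC content of their annotated transcripts in percent. Blue lines are the medians of all tested genes in each of 4 classes of GC content, from -0.29 in the lowest to 0.18 in the highest, and the 3 genes that fell lie in the lowest class.

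After the trend with GC content and length was removed from every library, ADAM17 alone of the 9 was still called (log2 fold change -0.38, 95% CI -0.54 to -0.22, adjusted p = 0.0374), 1 of 9 against 5.08% of all genes tested (2.63% lower and 2.45% higher). ADAM10 had a log2 fold change of -0.31 (95% CI -0.50 to -0.12, adjusted p = 0.0842). ADAM15 had 0.63 (95% CI 0.30 to 0.96, adjusted p = 0.0595) and MMP15 had 0.25 (95% CI 0.07 to 0.42, adjusted p = 0.106). ADAM9 had 0.01 (95% CI -0.16 to 0.18, adjusted p = 0.964). The other 4 lay between 0.06 and 0.10, and the median of the 9 was 0.066, against 0.22 without the correction. What gives the trend was not tested.

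**Figure D4:**
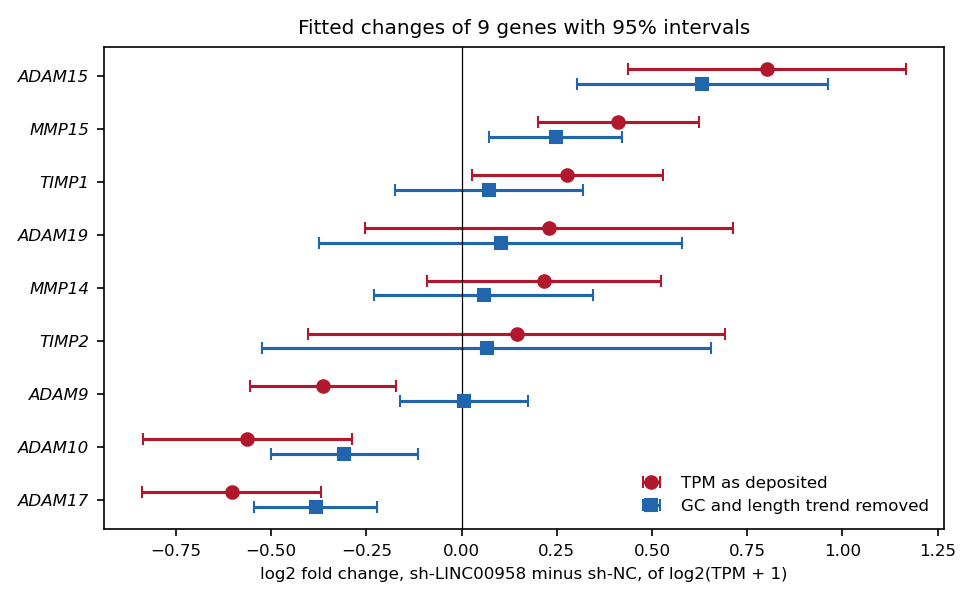
Fitted log2 fold changes of 9 genes, sh-LINC00958 minus sh-NC, with 95% CIs, from TPM as deposited (red circles) and after the GC and length correction (blue squares). ADAM17 moves from -0.60 to -0.38 and ADAM15 from 0.80 to 0.63, while ADAM9 moves from -0.36 to 0.01.

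All 5 calls depended on which libraries were fitted. Without sh-LINC00958 replicate 1 or 3, or sh-NC replicate 1 or 2, none of the 5 was called, with adjusted p-values of up to 0.143 for ADAM17, 0.148 for ADAM15, 0.177 for MMP15, 0.178 for ADAM10 and 0.205 for ADAM9. Without sh-LINC00958 replicate 2 all 5 were called. The folds kept their signs in these fits, from -0.66 to -0.57 for ADAM17, -0.63 to -0.49 for ADAM10, -0.41 to -0.32 for ADAM9, 0.38 to 0.45 for MMP15 and 0.63 to 0.98 for ADAM15. With all libraries but no filter on low values none of the 5 was called, and without a variance trend only ADAM17 was (adjusted p = 0.0447). Permuted exactly and two-sided, each gene gave p = 0.1, the lowest value this number of libraries can reach.

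Proteins that carry, activate or retain the sheddases were measured as a list of 19, all of them tested. Of these 3 rose, 0 fell and 16 did not pass (7 higher and 0 lower at an unadjusted p under 0.05 in limma), with a median log2 fold change of 0.25, or 0.087 after the GC and length correction. Over all 17049 genes tested, 2446 were higher and 2784 lower at an unadjusted p under 0.05 in limma. By adjusted p, 4.12% were called higher and 5.68% lower. The counts of this list and of those below stand beside these shares and were not tested against them. RHBDF1, which encodes the rhomboid pseudoprotease iRhom1 that escorts ADAM17 to the cell surface, measured 30.3, 26.2 and 30.4 TPM in sh-LINC00958 and 19.6 and 14.2 TPM in sh-NC (log2 fold change 0.76, adjusted p = 0.0407). TSPAN17, a tetraspanin partner of ADAM10, measured 38.0, 35.4 and 34.7 TPM in sh-LINC00958 and 23.4 and 23.6 TPM in sh-NC (log2 fold change 0.60, adjusted p = 0.0219). PCSK7, a proprotein convertase of the family that matures ADAM precursors, averaged 42.3 ± 1.92 TPM in sh-LINC00958 and 28.6 ± 0.135 TPM in sh-NC (log2 fold change 0.55, adjusted p = 0.0247). These 3 rises and the falls of ADAM10 and ADAM17 come from the same comparison of groups. Every gene called higher stands opposite to ADAM10 and ADAM17 in this way, and a link between them was not tested. Of the 19, 13 had a positive fold and 6 a negative one. TSPAN14, a tetraspanin gene of the list named after its values were seen, was lower without overlap. It had 117 ± 3.99 TPM in sh-LINC00958 and 129 ± 1.65 TPM in sh-NC and was not called (-0.14, adjusted p = 0.249 in limma). TSPAN17 (0.44) and PCSK7 (0.42) were still called after the GC and length correction and RHBDF1 was not (0.59, adjusted p = 0.102). CD9, the most abundant of the list, had 249 ± 28.98 TPM in sh-LINC00958 and 246 ± 14.2 TPM in sh-NC.

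Among 24 genes for ADAM17 substrates 14 were tested, of which 4 rose, 2 fell and 8 did not pass, with a median log2 fold change of 0.44, or 0.34 after the GC and length correction. TGFA, the epidermal growth factor receptor ligand transforming growth factor alpha, measured 110.3, 109.6 and 110.7 TPM in sh-LINC00958 and 76.6 and 77.7 TPM in sh-NC. Replicates lay close together on both sides (TGFA log2 fold change 0.51, adjusted p = 0.0183). SDC4, a heparan sulphate proteoglycan of the cell surface, averaged 105 ± 2.62 TPM in sh-LINC00958 and 61.3 ± 4.45 TPM in sh-NC (log2 fold change 0.76, adjusted p = 0.0117). IL6R, the interleukin-6 receptor gene (0.83), and NECTIN4, an adhesion molecule gene (0.84), also rose. IL6R had 10.6 TPM in sh-LINC00958 and 5.47 TPM in sh-NC on average, and NECTIN4 had 2.60 TPM in sh-LINC00958 and 1.00 TPM in sh-NC. The adhesion genes ALCAM (-0.59) and DSG2 (-0.49) fell. After the GC and length correction TGFA (0.43) and SDC4 (0.74) were still called and the other 4 were not. TNFRSF1A, a tumour necrosis factor receptor gene with the highest mean over all 5 libraries, although TGFA was higher in sh-LINC00958 and DSG2 in sh-NC, had 106 ± 28.6 TPM in sh-LINC00958 and 110 ± 6.61 TPM in sh-NC.

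Among 19 genes for ADAM10 substrates 17 were tested, of which 1 rose, 0 fell and 16 did not pass, with a median log2 fold change of -0.12, or -0.19 after the GC and length correction (2 higher and 4 lower at an unadjusted p under 0.05 in limma). The riser was CD44, the hyaluronan receptor, which MMP14 also cleaves, at 64.4 ± 3.34 TPM in sh-LINC00958 and 36.6 ± 9.61 TPM in sh-NC (log2 fold change 0.82, adjusted p = 0.0372). It was not called after the GC and length correction (0.86, adjusted p = 0.0526). APLP2, the most abundant, averaged 497 ± 13.7 TPM in sh-LINC00958 and 583 ± 14.98 TPM in sh-NC and did not pass (-0.23, adjusted p = 0.0759). Of the 8 genes for beta- and gamma-secretase, which cut further the stubs that shedding leaves or compete for the same substrates, 0 were called in limma (3 higher and 0 lower at an unadjusted p under 0.05). NCSTN, the nicastrin gene, had the highest mean over all 5 libraries, at 115 ± 2.18 TPM in sh-LINC00958, where APH1A was higher at 119 TPM, and 106 ± 2.34 TPM in sh-NC.

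Of 15 substrates and partners of MMP14, 13 were tested, with 1 rise (CD44), 1 fall and 11 that did not pass, and a median log2 fold change of 0.41. After the GC and length correction 0 were called and the median was 0.19. The fall was that of ITGAV, the integrin alpha-v gene, at 24.3 ± 1.41 TPM in sh-LINC00958 and 40.8 ± 3.15 TPM in sh-NC (log2 fold change -0.72, adjusted p = 0.0194), which had a log2 fold change of -0.38 after the GC and length correction (adjusted p = 0.0682). BSG, the MMP-inducing glycoprotein basigin, was the most abundant, with 1290 ± 79.1 TPM in sh-LINC00958 and 1157 ± 14.5 TPM in sh-NC. MMP2, the protease that MMP14 activates, was listed at 0 in every library except sh-NC replicate 1, which had 0.0265 TPM.

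Of 21 other MMPs 4 were tested and 0 called in limma (1 higher and 1 lower at an unadjusted p under 0.05). The most abundant was MMP17, a membrane MMP held by a lipid anchor, with 19.6, 17.6 and 10.6 TPM in sh-LINC00958 and 25.9 and 42.4 TPM in sh-NC. Both groups spread widely, and MMP17 had a log2 fold change of -1.06 (95% CI -1.82 to -0.29, adjusted p = 0.0858). Of 27 other ADAM and ADAMTS genes 13 were tested, 1 fell and 0 rose in limma (0 higher and 2 lower at an unadjusted p under 0.05). The fall was that of ADAM22, a non-catalytic ADAM, at 2.86 ± 0.481 TPM in sh-LINC00958 and 5.43 ± 0.254 TPM in sh-NC (log2 fold change -0.74, adjusted p = 0.0443), and it was not called after the GC and length correction (-0.55, adjusted p = 0.152). After that removal ADAMTS15, an aggrecan-cleaving protease gene, was called instead (-0.80, adjusted p = 0.0387). ADAMTS7, the most abundant, had 15.5 ± 0.732 TPM in sh-LINC00958 and 15.7 ± 0.942 TPM in sh-NC. Of 6 other inhibitors 5 were tested and 0 called in limma (0 higher and 1 lower at an unadjusted p under 0.05). PZP, the most abundant, had 28.5 ± 6.01 TPM in sh-LINC00958 and 27.3 ± 0.137 TPM in sh-NC. TIMP3, the principal inhibitor of ADAM17 in other tissues, was the inhibitor below the filter and was looked up for that reason after its values were seen, with 0.0548, 0.0403 and 0.0470 TPM in sh-LINC00958 and 0 and 0.113 TPM in sh-NC. Over the 8 lists 12 genes were called. When either control or sh-LINC00958 replicate 1 was left out none of the 12 was called, without sh-LINC00958 replicate 3 only SDC4 was, and without sh-LINC00958 replicate 2 all were but CD44 and ADAM22. With no filter on low values 6 of the 12 were still called, namely ALCAM, ITGAV, PCSK7, SDC4, TGFA and TSPAN17. Without a variance trend 9 of the 12 were called, CD44, DSG2 and RHBDF1 being lost, and with a mean of at least 5 TPM 10 were, ADAM22 and NECTIN4 being below that filter.

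**Figure D5:**
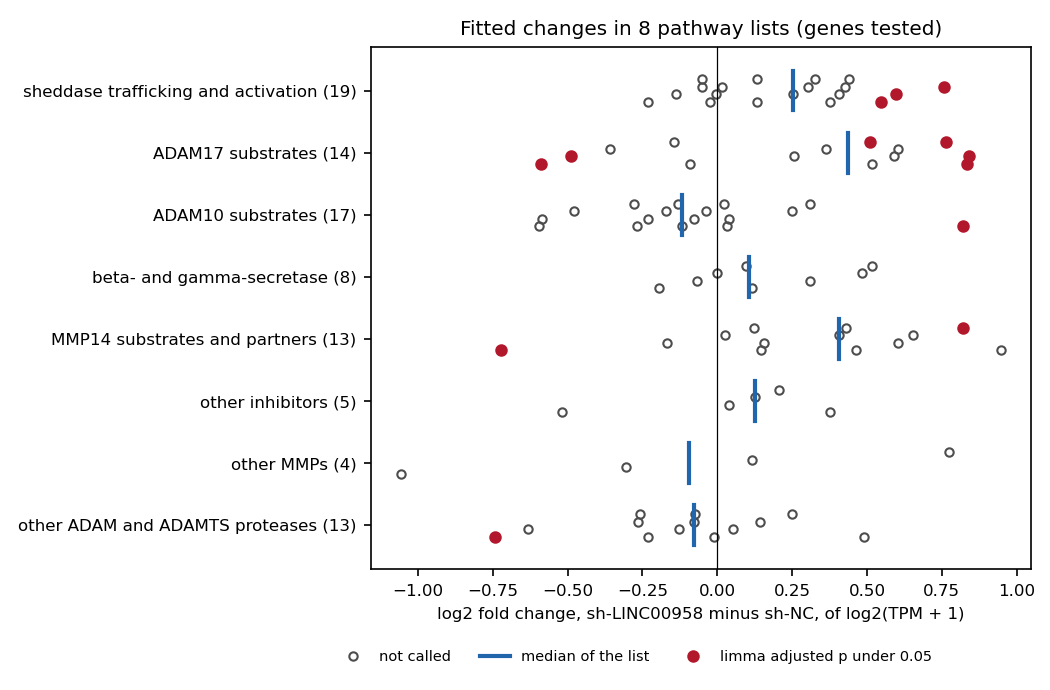
Fitted log2 fold changes (sh-LINC00958 minus sh-NC) of the genes tested in 8 pathway lists, 1 point per gene, filled red where the limma adjusted p was under 0.05, with list medians as blue lines. The ADAM17 substrates hold 4 rises and 2 falls, the trafficking list 3 rises, and the secretases, other MMPs and other inhibitors hold none.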

How the data were processed

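TPM values for 5 libraries were deposited by the authors as 1 table with 1 column per library, and no value column was left unused. Per the submitters' processing notes, the tools were StringTie 1.3.3b, HISAT2 2.0, Trimmomatic 0.36 and FastQC 0.11.2, and the build was GRCh38. The sources used here name neither the annotation release nor the strand setting. Coordinates, exon length and GC content over all transcript bases came from GENCODE release 29, which held 57836 of 58174 gene IDs, and promoters from RefSeq (GRCh38.p14), which matched 8 of the 10 genes.

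Log2(TPM + 1) was fitted with limma 3.58.1 in R 4.3.3 (lmFit, eBayes with a mean-variance trend) over 17049 genes with a mean of at least 1 TPM. The script was tested on simulated data. The GC and length trend was removed with natural splines (4 df each) of each library's deviations from the gene mean. Other alternatives were pseudocounts, filters, scaling, moderation, a replicate block and leaving out each library. The genes and lists were chosen with earlier results of these data known. The rule named all 10 genes and, of each list, the genes called and the most abundant by the mean over all libraries. Depth is unknown. No pair of libraries held identical values.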

Additional observations from a re-analysis of the deposited data

How the results depend on the processing

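The counts of genes called higher and lower (702 and 969) became 207 and 269 with no filter on low values, 371 and 518 without a variance trend, 417 and 447 with the GC and length trend removed, and 0 and 2 with a replicate block. They ranged from 10 to 905 higher and from 6 to 1491 lower when 1 library was left out. Of the 10 genes described, 2 higher and 3 lower were called, and 0 and 0 with no filter or with the block, 0 and 1 without the variance trend or with the GC and length trend removed. Leaving out a library gave 0 to 2 higher and 0 to 3 lower. The other alternatives, namely pseudocounts of 0.1 and 5, a mean of at least 5 TPM, median-ratio scaling, quantile normalization and robust eBayes, called the same 5 genes. Signs turned for ADAM9 with the GC and length trend removed (log2 fold change 0.0069) and for TIMP2, which was not called, with the block (-0.030) and in 2 of the fits without 1 library (range -0.036 to 0.326). The fit without sh-LINC00958 replicate 3 is 1 of these 2 and gave the same folds as the block. Only sh-LINC00958 has a replicate 3, so the block takes that library out of the comparison, and the 2 fits are not separate checks of a fold. Why calls and signs moved was not tested. Fits with fewer libraries have fewer degrees of freedom, as has the block. The fit without sh-LINC00958 replicate 2 is among them and called 905 genes higher and 1491 lower. Leaving out a control leaves 1 sh-NC library, which is assumed to vary like the other group. The labels share replicate numbers 1 and 2 without saying that they mark a culture or day. For that reason the block was not used for the values reported. Deviations of same-numbered libraries correlated at 0.0013 and 0.050. The deviations of 2 controls from their mean are exact opposites, so these correlations are not separate checks. They cannot decide whether the libraries are paired. With the block 0 of the 12 pathway genes called were still called. Depth is unknown, so its limit on low genes such as ADAM19 and TIMP2 cannot be stated.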
